A study of Mus musculus with 48 samples.

Results

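The genes described here are a set of the bone morphogenetic protein (BMP) pathway in mouse embryonic stem cells (mESCs), followed after a block of transcription. They were chosen by name, with earlier results of these data known. The set holds the ligand Bmp4, the receptor Bmpr1a, and the signal transducers Smad1 and Smad5. It also holds the inhibitor of differentiation genes Id1, Id2, Id3 and Id4, and the inhibitory Smads Smad6 and Smad7. Values were available for 9 of the 10 genes, out of 23862 gene identifiers in all, and Id1 was not analysed here. E14TG2a mESCs, an established line grown in serum-containing 2i + LIF medium, were treated with 1 µM flavopiridol, which inhibits CDK9 and thereby stops RNA polymerase II from elongating. After 30, 60, 120 and 240 min the cells were split into cytosolic, membrane and nuclear fractions next to the unfractionated total extract. Polyadenylated RNA was sequenced from 3 independently passaged replicates per fraction and time, which gave 48 libraries in 16 groups of 3. All groups carried flavopiridol, the buffers contained the translation inhibitor cycloheximide, and no untreated time course was used here. The sequential detergent procedure leaves insoluble material in the nuclear fraction.

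A value states how much of an mRNA was left, as a ratio to the untreated 0 min level of its own fraction, so that 1 stands for no change. These ratios say how fast an mRNA disappeared from a fraction. They do not say how abundant it was there, so levels cannot be compared between genes. In such bulk libraries a loss of RNA per cell and a loss of cells that contain it cannot be told apart. The libraries listed between 15067 and 19501 genes, and a gene without signal in a library is not listed in it. Sequencing depth per library is unknown. Of 8 embryonic stem cell markers, 6 were listed in all 48 libraries, against 0 of 5 fibroblast, 0 of 4 endoderm, 0 of 2 mesoderm and 0 of 2 neural markers. The stem cell markers Zfp42 and Esrrb were listed in 47 and 37 libraries. The fibroblast genes Col1a1 and Thy1, the endoderm gene Gata6, the mesoderm genes T and Mixl1 and the neural gene Sox1 were listed in 42 to 47 libraries. The fibroblast gene Dcn and the endoderm genes Gata4 and Afp were listed in none, and the remaining 4 in 1 to 12. Ratios to 0 min do not give the level of these genes, and their part in the results was not tested. The nuclear library of 30 min, replicate 1 stood apart: its median gene was at -0.76 on the log2 scale, against a group mean of -0.37.

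BMP ligands bind a complex of type I receptors such as BMPR1A and type II receptors. The receptor phosphorylates SMAD1 and SMAD5, which enter the nucleus with SMAD4 and activate target genes, among them the Id genes. ID proteins are helix-loop-helix factors without a DNA binding domain that sequester E proteins, and in mESCs they are known for restraining differentiation next to LIF signalling. SMAD6 and SMAD7 are induced by the same pathway and inhibit it at the receptor and at the SMADs, which closes a negative feedback loop.

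The gene set fell into 3 behaviours. Relative to the other members, Bmpr1a and Smad5 declined slowly, Smad1, Id3, Id4 and Smad6 declined quickly, and Smad7 dropped early and then rose again. Against all genes Bmpr1a and Smad5 were not slow. Their slopes in total RNA stood at percentiles 13.9 and 20.8, steeper than that of the median gene. From 120 to 240 min Smad1, Id4 and Smad6 fell in each kind of library, and Id3 fell in nuclear and cytosolic RNA but was not called in total RNA. The comparison of late times is therefore given first for Smad7 and afterwards by position in the pathway.

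Smad7 (ENSMUSG00000025880), the inhibitory SMAD that also recruits ubiquitin ligases to the receptor, was listed in all 48 libraries. In total RNA its ratio to 0 min was 0.427, 0.499 and 0.487 in the 3 replicates at 30 min, and 0.207, 0.197 and 0.210 at 60 min. It was 0.0750, 0.121 and 0.113 at 120 min, and 0.224, 0.244 and 0.248 at 240 min. All values of 240 min lay above all values of 120 min, and each earlier time lay above the next one without overlap.

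The same turn was seen in each fraction. In nuclear RNA Smad7 stood at 0.237, 0.139 and 0.142 at 120 min and at 0.305, 0.323 and 0.316 at 240 min. In cytosolic RNA the values were 0.108, 0.120 and 0.0863 at 120 min and 0.151, 0.139 and 0.172 at 240 min, and in membrane RNA 0.177, 0.168 and 0.156 against 0.325, 0.318 and 0.355. The 2 times did not overlap in any of the 4 kinds of library, and the smallest gap was in cytosolic RNA.

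**Figure D1:**
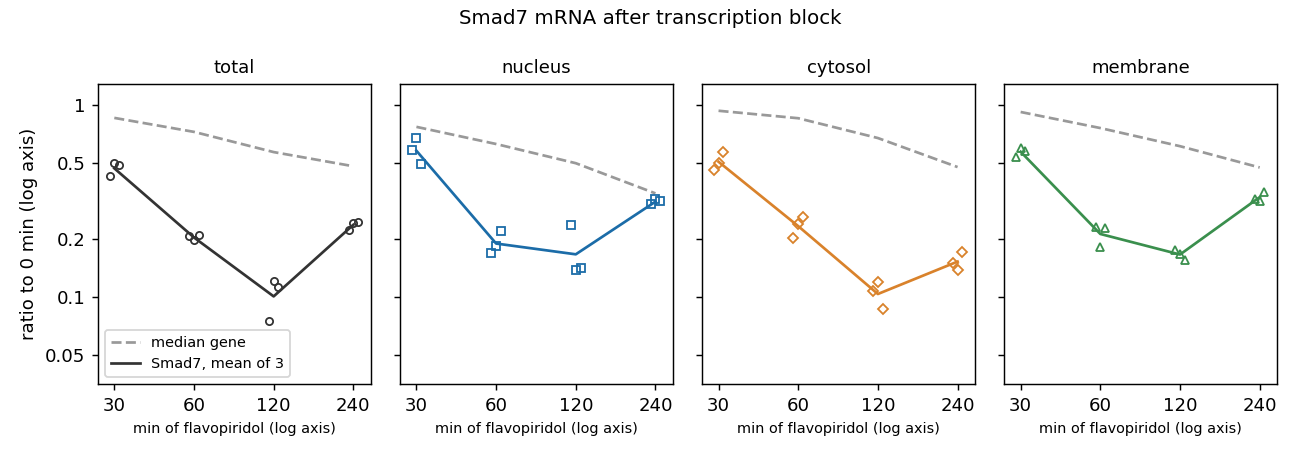
Ratio of Smad7 to its 0 min level (log axis) against minutes of flavopiridol (log axis) in total RNA and the 3 fractions. Open symbols are the 3 replicates, solid lines join their means on the log2 scale, and the dashed line is the median gene among those listed in each of the 12 libraries. In every panel the mean of Smad7 is lowest at 120 min and higher at 240 min, while the median gene falls throughout.

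The change from 120 to 240 min was tested with limma across all genes of a fraction, with Benjamini-Hochberg adjusted p under 0.05 as the threshold for a call. Smad7 rose by 1.24 ± 0.20 (log2, SE) in total RNA (adjusted p = 0.000927, limma), where 5.92% of 12762 genes were called higher. It rose by 0.91 ± 0.24 in nuclear RNA (adjusted p = 0.0133, limma; 1.97% of genes called higher), by 0.56 ± 0.17 in cytosolic RNA (adjusted p = 0.0210, limma; 2.78%) and by 0.99 ± 0.14 in membrane RNA (adjusted p = 0.000272, limma; 3.72%). Smad7 was the only gene of the set called higher in this interval, in each of the 4 fits. Its estimate stood at percentile 98.0 of all genes in total RNA and in membrane RNA, at 97.2 in nuclear RNA and at 95.3 in cytosolic RNA. The rise is relative to the long-lived genes on which the libraries were scaled. With libraries scaled to the mitochondrially encoded mRNAs instead, the cytosolic rise was 0.65 with an adjusted p of 0.12 by limma. The cytosolic call was lost without any 1 replicate, with 0.35 and an adjusted p of 0.21 by limma without replicate 3. In nuclear RNA leaving out replicate 2 gave 0.76 and replicate 3 gave 0.79, with adjusted p of 0.183 and 0.172 by limma. The calls in total RNA and in membrane RNA were kept under each of the 10 alternatives run for them.

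Whether the late rise differed between fractions was tested directly, a test added after the rise had been seen. The step of Smad7 was 0.35 ± 0.29 larger in nuclear RNA than in cytosolic RNA (adjusted p = 0.61, limma) and 0.43 ± 0.20 larger in membrane RNA than in cytosolic RNA (adjusted p = 0.26, limma). Neither difference passed the threshold, and 0 members were called in either test. Of all genes, 0.463% and 0.223% were called higher and lower for nuclear RNA, and 1.75% and 0.974% for membrane RNA. At an unadjusted p under 0.05, 1695 and 2095 genes passed. With mitochondrial scaling the nuclear step of Smad7 exceeded the cytosolic one by 1.32 (adjusted p = 0.0377, limma), but that scaling moved the median difference of all genes from 0.06 to 1.02.

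Because of the turn, a single slope over the whole time course describes Smad7 poorly. From 30 to 240 min its log2 ratio changed by -0.18 ± 0.17 per hour in total RNA, -0.10 ± 0.16 in nuclear RNA and -0.09 ± 0.15 in membrane RNA, and none of these passed the threshold. The cytosolic slope of -0.42 ± 0.15 per hour was called (adjusted p = 0.0234, limma). Without the last time point the slopes were -1.41, -1.05, -1.48 and -1.07 per hour in total RNA, nucleus, cytosol and membrane, and all 4 were called. An exponential fit to the same window gave half-lives of 31.3 ± 1.0 min in total RNA, 28.1 ± 10.8 min in nuclear RNA, 32.2 ± 3.3 min in cytosolic RNA and 32.1 ± 8.0 min in membrane RNA (SD of 3 replicate series).

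Smad7 had the lowest mean of the set at 30 min in total RNA, where 1 replicate of Id3 overlapped it. The change from 0 to 30 min was -1.09 ± 0.14 on the log2 scale in total RNA (adjusted p = 0.00304, limma), at percentile 3.86 of all genes, and 8.24% of them were called lower. The corresponding changes were -0.79 ± 0.17 in nuclear RNA (adjusted p = 0.00613, limma; 35.1% called lower), -0.98 ± 0.12 in cytosolic RNA (adjusted p = 0.00358, limma; 8.16%) and -0.80 ± 0.10 in membrane RNA (adjusted p = 0.00288, limma; 7.00%). The other members called lower at 30 min were Id3 (-1.16 ± 0.29) and Id4 (-0.74 ± 0.16) in nuclear RNA, Bmpr1a in cytosolic RNA (-0.37 ± 0.08) and Smad5 in membrane RNA (-0.55 ± 0.13). None was called higher, against 0.235%, 4.05%, 1.89% and 1.07% of all genes in total, nuclear, cytosolic and membrane RNA. All libraries of a gene and fraction were divided by 1 shared 0 min value whose own error is not in the files, so these p-values are too small. They also need all 3 replicates: the calls of Smad7 in total RNA, cytosol and membrane were lost without any one of them, the nuclear call without replicate 3 (-0.67, adjusted p = 0.101, limma). Id4 lost its nuclear call without any 1 replicate, and Id3 lost its call without replicate 1 or 3. With mitochondrial scaling the cytosolic change of Smad7 was -0.38 (adjusted p = 0.14, limma), and the split over all genes in that fraction went from 978 lower and 226 higher to 62 lower and 4681 higher.

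Bmp4 (ENSMUSG00000021835, GRCm38 chr14:46383520-46390669, minus strand), the ligand, was listed in 16 of 48 libraries and could not be fitted. In total RNA it stood at 2.19 and 1.97 in replicates 2 and 3 at 30 min, at 1.02 in replicate 3 at 60 min and at 0.353 in replicate 3 at 240 min. In membrane RNA it stood at 0.226, 0.666 and 0.873 at 30 min, at 0.0975 in 1 library at 60 min, and at 0.0948 and 0.104 in 2 libraries at 120 min. In these 2 series all values from 60 min on were below those of 30 min. In nuclear RNA Bmp4 was at 0.292 and 1.38 in replicates 1 and 2 at 30 min, and at 0.631 and 0.266 in 1 library each at 60 and 120 min, so that the 60 min value lay between those of 30 min. In cytosolic RNA it was at 2.11 in 1 library of 30 min and at 0.824 in 1 of 120 min. Bmp4 overlaps genes on the opposite strand, and whether the counting used the strand is not given in the sources used here.

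Bmpr1a (ENSMUSG00000021796, GRCm38 chr14:34410734-34503341, minus strand), a type I BMP receptor, showed the slowest decline of the set together with Smad5. In total RNA its ratio was 0.667, 0.880 and 0.773 at 30 min, 0.532, 0.663 and 0.740 at 60 min, 0.242, 0.436 and 0.441 at 120 min, and 0.154, 0.186 and 0.146 at 240 min. The values of 30 and 60 min overlapped and later times lay apart. The slope was -0.65 ± 0.06 per hour in total RNA (adjusted p = 1.6e-06, limma), -0.68 ± 0.06 in nuclear RNA, -0.52 ± 0.03 in cytosolic RNA and -0.61 ± 0.04 in membrane RNA, all called.

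With the libraries as deposited, the membrane values of Bmpr1a stayed near the starting level for the first hour. They were 0.944, 0.992 and 1.04 at 30 min and 0.954, 0.896 and 1.05 at 60 min, while the cytosolic values were 0.706, 0.769 and 0.857 and then 0.592, 0.638 and 0.610. The membrane and cytosolic ranges did not overlap at either time. This contrast depends on the scaling. Over all settings the log2 change of Bmpr1a at 30 min ran from -0.29 to 0.13 in membrane RNA. In cytosolic RNA it ran from -0.44 to 0.23, the latter with mitochondrial scaling. That scaling moved the median 30 min change of all genes from -0.12 to -0.40 in membrane RNA, and from -0.10 to 0.50 in cytosolic RNA. No test is given for this contrast, because each fraction was divided by its own 0 min value and the error of these values is unknown. From 120 to 240 min Bmpr1a fell by 1.42 ± 0.11 in membrane RNA (adjusted p = 8.2e-06, limma) and by 0.95 ± 0.11 in cytosolic RNA (adjusted p = 6.6e-05, limma). The slopes themselves were not called different between membrane and cytosol (-0.09 ± 0.05 per hour, adjusted p = 0.28, limma) or between nucleus and cytosol (-0.16 ± 0.06, adjusted p = 0.066, limma). Without the nuclear library of 30 min, replicate 1 the second difference was -0.18 (adjusted p = 0.0341, limma).

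Smad5 (ENSMUSG00000021540, GRCm38 chr13:56703010-56742377, plus strand) and Smad1 (ENSMUSG00000031681, GRCm38 chr8:79338395-79399518, minus strand) encode closely related transducers of the same receptor signal. In total RNA Smad5 was at 0.715, 0.778 and 0.796 at 30 min and at 0.210, 0.203 and 0.192 at 240 min. Smad1 was at 0.710, 0.977 and 0.860 at 30 min and at 0.0547, 0.0458 and 0.0832 at 240 min. The 2 genes overlapped at 30 min and lay apart at 240 min, with Smad1 lower.

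This difference within a library does not depend on how the libraries were scaled. In total RNA the log2 ratio of Smad1 minus that of Smad5 amounted to 0.14 ± 0.17 at 30 min (SD, n = 3), -0.10 ± 0.38 at 60 min, -0.60 ± 0.34 at 120 min and -1.76 ± 0.50 at 240 min. At 240 min it was -1.36 ± 0.25 in nuclear RNA, -1.56 ± 0.35 in cytosolic RNA and -1.51 ± 0.94 in membrane RNA, which corresponds to 3.40-, 2.56-, 2.96- and 2.84-fold less Smad1 than Smad5, each relative to 0 min, in the 4 kinds of library. Smad1 was the lower of the pair in 40 of 48 libraries and in all 12 of 240 min. These libraries are not independent. All libraries of a gene and fraction share the same 0 min value, and the fractions of a replicate and time share a harvest. The SDs and fold values leave out the error of the 0 min value. The same limits apply to the other pairs below. Slopes followed this order: Smad1 fell by 1.07 ± 0.08 per hour in total RNA (adjusted p = 2.8e-07, limma) and Smad5 by 0.52 ± 0.05 (adjusted p = 1.1e-06, limma). Half-lives of Smad5 were 96.4 ± 3.5, 92.9 ± 16.1, 87.5 ± 15.0 and 85.7 ± 17.9 min in total RNA, nucleus, cytosol and membrane, and those of Smad1 48.6 ± 13.2, 66.9 ± 17.5, 65.1 ± 4.2 and 49.7 ± 8.5 min. The late step of Smad1 was the largest fall among the members fitted in total RNA, with -2.00 ± 0.32 (adjusted p = 0.00100, limma).

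**Figure D2:**
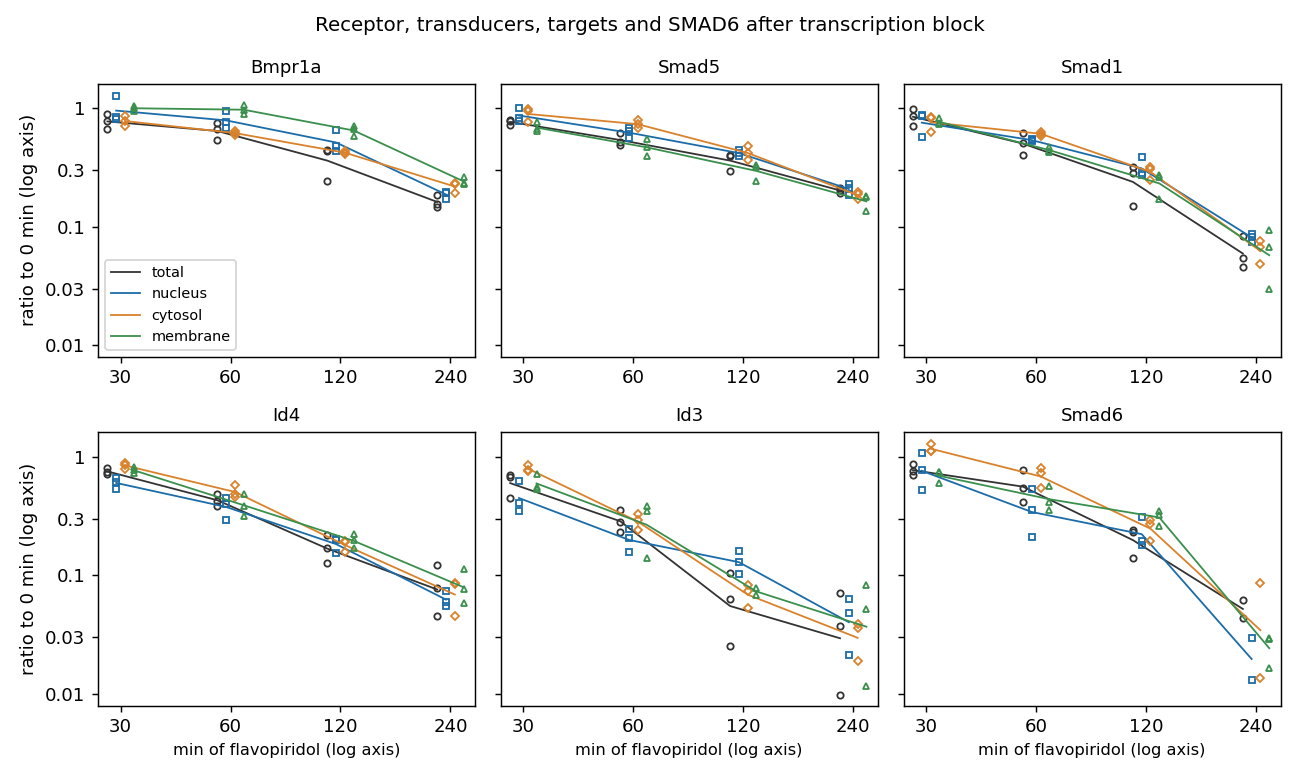
Ratio to 0 min (log axis) against minutes of flavopiridol (log axis) for the receptor, the transducers, the Id genes and Smad6. Symbols are single libraries coloured by fraction and shifted slightly sideways, and lines join the means on the log2 scale. Bmpr1a and Smad5 end between 0.136 and 0.261, Smad1, Id4, Id3 and Smad6 end at or below 0.122, and 3 libraries of 240 min that do not list Smad6 have no symbol.

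Among the Id genes, Id3 (ENSMUSG00000007872, GRCm38 chr4:136143497-136145755, plus strand) and Id4 (ENSMUSG00000021379, GRCm38 chr13:48261228-48266026, plus strand) could be followed. Id2 (ENSMUSG00000020644) was listed in 1 library, the nuclear one of 30 min, replicate 1, at 0.459. In total RNA Id3 was at 0.703, 0.674 and 0.450 at 30 min, 0.279, 0.358 and 0.233 at 60 min, 0.104, 0.0255 and 0.0630 at 120 min, and 0.0372, 0.00974 and 0.0708 at 240 min. The last 2 times overlapped, and the late step of -0.90 ± 0.69 was not called (adjusted p = 0.35, limma).

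Id4 in total RNA was at 0.718, 0.800 and 0.736 at 30 min, 0.424, 0.386 and 0.483 at 60 min, 0.126, 0.171 and 0.220 at 120 min, and 0.0457, 0.0784 and 0.122 at 240 min. Each time lay below the one before without overlap. Id4 overlaps an antisense gene, A330033J07Rik, from which its reads may not be told apart. The slope of Id3 was -1.21 ± 0.22 per hour (adjusted p = 0.000333, limma), at percentile 1.94 of all slopes, and that of Id4 -0.92 ± 0.11 (adjusted p = 7.6e-06, limma), at percentile 5.92. In nuclear RNA they fell by 0.92 ± 0.12 and 0.91 ± 0.07 per hour, and in cytosolic RNA by 1.28 ± 0.15 and 1.02 ± 0.08. In membrane RNA Id4 fell by 0.88 ± 0.09, and Id3, not listed in 1 library of 120 min there, had a slope of -1.09 ± 0.20 in the fit that allows unlisted libraries.

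Id3 was the lower of the pair in 43 of 47 libraries, a comparison added after the values had been seen. In cytosolic RNA the log2 difference was -0.09 ± 0.12 at 30 min, -0.83 ± 0.38 at 60 min, -1.39 ± 0.42 at 120 min and -1.21 ± 0.07 at 240 min (SD, n = 3). In total RNA it was -1.61 ± 1.25 at 120 min and -1.36 ± 1.44 at 240 min, and at 240 min the SD exceeded the mean. Half-lives of Id3 were 28.2 ± 4.0, 38.6 ± 18.7, 21.3 ± 3.6 and 29.8 ± 16.2 min in total RNA, nucleus, cytosol and membrane, and those of Id4 42.6 ± 11.95, 53.2 ± 3.2, 42.0 ± 8.1 and 41.5 ± 10.5 min. In total and cytosolic RNA Id3 and Id4 differed by more than either SD, whereas in nuclear and membrane RNA the SD of Id3 was larger than their difference. The values of Id3 depend on the fit: a straight line on the log2 scale gave 49.4, 65.5, 46.8 and 55.0 min for Id3 and 65.5, 65.7, 59.0 and 68.0 min for Id4. With the start fixed at 1, cytosolic Id3 was at 42.8 min and cytosolic Id4 at 62.2 min.

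Smad6 (ENSMUSG00000036867, GRCm38 chr9:63953076-64022059, minus strand), the second inhibitory SMAD, behaved unlike Smad7. In membrane RNA it was at 0.742, 0.593 and 0.740 at 30 min, 0.357, 0.418 and 0.561 at 60 min, 0.351, 0.258 and 0.320 at 120 min, and 0.0293, 0.0296 and 0.0166 at 240 min. The values of 240 min lay far below all others. The change from 120 to 240 min was -3.66 ± 0.26 (adjusted p = 6.5e-06, limma), at percentile 0.0967 of all genes. Over all settings this step was called but ran from -3.93 to -1.71, so its size is uncertain. In the other 3 kinds of library replicate 3 of 240 min did not list Smad6, so ratios this low may lie near the limit of detection. With unlisted libraries left out, its late step was -1.93 ± 0.34 in total RNA (adjusted p = 0.0032, limma), -3.49 ± 0.51 in nuclear RNA (adjusted p = 0.0017, limma) and -2.84 ± 0.63 in cytosolic RNA (adjusted p = 0.0064, limma). In cytosolic RNA the 30 min values of 1.12, 1.11 and 1.28 were above 1 in each replicate, and with the same fit the 30 min level was not called different from 0 min (0.22 ± 0.40, adjusted p = 0.77, limma).

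Within libraries Smad6 was on average higher than Smad7, each relative to 0 min, until 120 min and lower at 240 min. The difference in total RNA was 0.71 ± 0.20 at 30 min, 1.45 ± 0.45 at 60 min and 0.97 ± 0.71 at 120 min (log2, SD, n = 3), and -2.17 ± 0.26 (n = 2) at 240 min. At 240 min it was -3.99 ± 0.88 (n = 2) in nuclear RNA, -2.07 ± 1.80 (n = 2) in cytosolic RNA and -3.77 ± 0.56 (n = 3) in membrane RNA. Smad6 was the higher of the pair in 33 of 45 libraries. None of the 9 libraries of 240 min that list both had it higher.

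**Figure D3:**
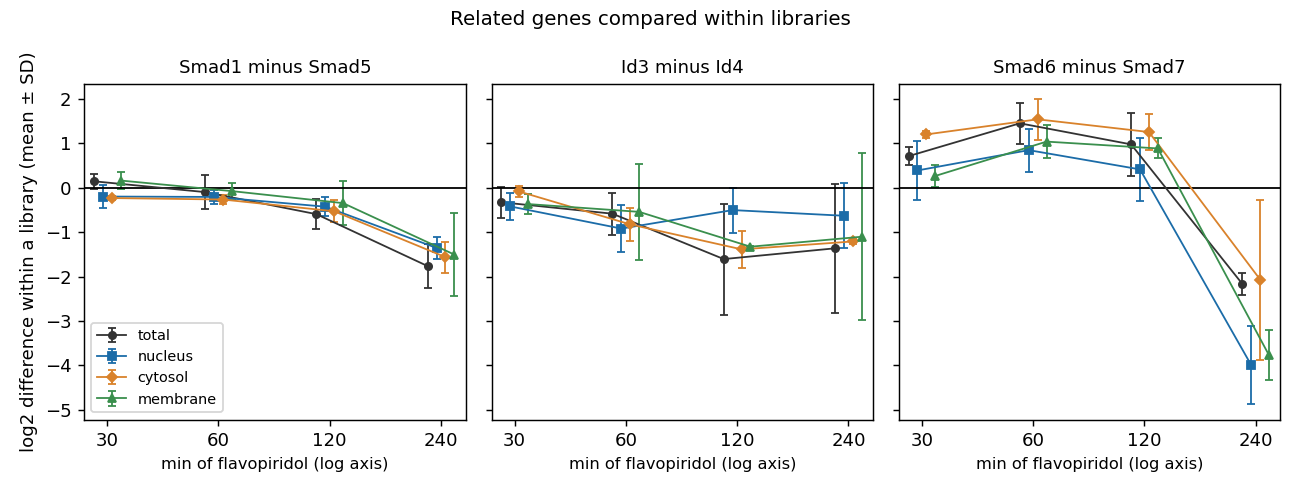
Difference of the log2 ratios of 2 related genes within a library (mean ± SD over replicates) against minutes of flavopiridol (log axis), by fraction. Smad1 minus Smad5 moves from near 0 to between -1.76 and -1.36, Id3 minus Id4 lies below 0 on average at each time, and Smad6 minus Smad7 turns from above 0 to below it at 240 min. Points with 2 listed libraries are Smad6 at 240 min outside membrane RNA and Id3 at 120 min in membrane RNA.

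Over the whole time course, 5 of the 6 members fitted in total RNA were called lower by slope (56.9% of all genes called lower), as were 5 of 6 in nuclear RNA (61.9%), 6 of 6 in cytosolic RNA (67.1%) and 5 of 6 in membrane RNA (62.2%). The exception in each of the 3 fits was Smad7, and 0 members were called higher (3.39%, 3.32%, 2.95% and 4.09% of all genes in the same order). The median slope of all genes was -0.22, -0.30, -0.28 and -0.26 per hour in the same order. Id3, Id4, Smad1, Smad5 and Bmpr1a were steeper than that median wherever they were fitted, and their calls were kept under every alternative run for the slope. The direction of weak slopes depends on the scaling: with libraries centred on their median genes, 3961 genes were called lower and 3672 higher in total RNA, against 7262 and 432 as deposited.

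From 120 to 240 min, Id4, Smad1, Smad5 and Bmpr1a fell in total RNA (4 of 6 members, 29.2% of all genes called lower). The same 4 and Id3 fell in nuclear RNA (5 of 6, 34.3%) and in cytosolic RNA (5 of 6, 47.9%), and the same 4 and Smad6 fell in membrane RNA (5 of 6, 37.6%). With mitochondrial scaling none of the 5 nuclear calls was kept, and the median late step of all nuclear genes went from -0.50 to 0.61. Of the 4 calls in total RNA, that of Smad1 alone was kept without replicate 2 and without replicate 3.

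**Figure D4:**
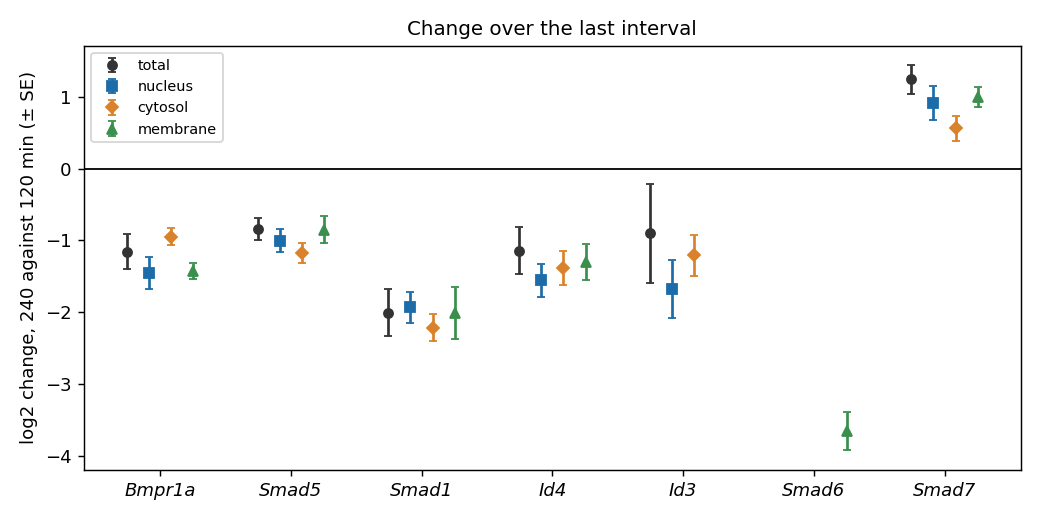
Change of the log2 ratio from 120 to 240 min with its SE from limma, for each member and fraction with all 12 libraries listed. Smad7 is above 0 in all 4 fits, by 0.56 to 1.24, and each other estimate is below 0, down to -3.66 for Smad6 in membrane RNA.

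Slopes were compared between fractions in fits of 24 libraries. None of the 6 members in the nuclear minus cytosol test was called (12.3% of genes called higher and 8.30% lower), nor of the 5 in the membrane minus cytosol test (4.94% and 1.76%). At an unadjusted p under 0.05, 3884 and 2151 genes passed these tests. Smad7 had the largest difference in the second test, 0.33 ± 0.21 per hour less steep in membrane RNA than in cytosolic RNA (adjusted p = 0.44, limma), and it was 0.32 ± 0.22 less steep in nuclear RNA (adjusted p = 0.33, limma). Fractions of 1 replicate and time come from the same harvest, and with the harvest as a block both differences of Smad7 were called (adjusted p = 0.0103 and 0.0246, limma). From 30 to 120 min, without the last time, Id3 was 1.19 per hour less steep in nuclear than in cytosolic RNA (adjusted p = 0.0208, limma), and Smad6 was 0.75 less steep in membrane than in cytosolic RNA (adjusted p = 0.0330, limma).

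**Figure D5:**
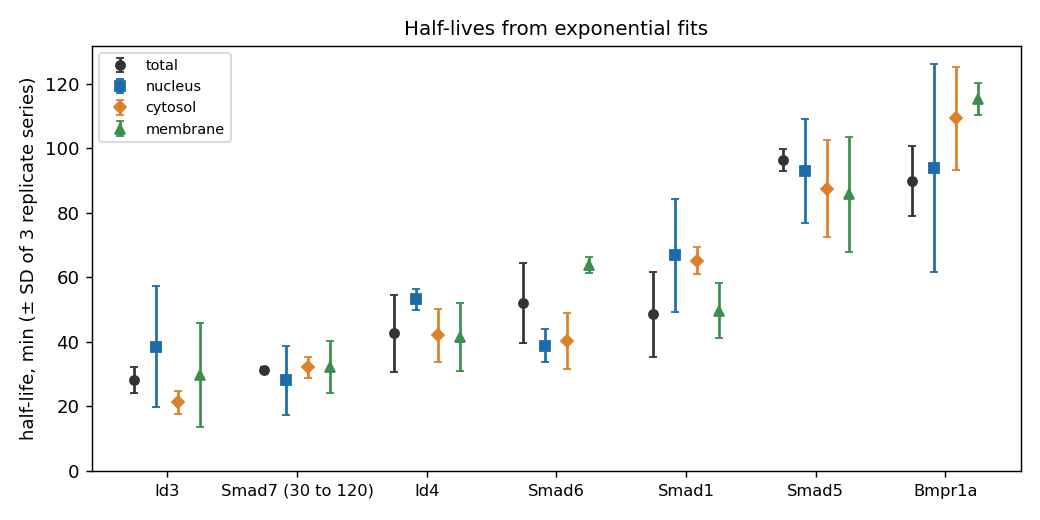
Half-lives in min from exponential fits to the 12 libraries of a fraction, with the SD of fits to the 3 replicate series. Values for Smad7 are from 30 to 120 min only, and all others use all listed times. Id3 and Smad7 lie between 21.3 and 38.6 min, Smad5 and Bmpr1a between 85.7 and 115.3 min.

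In total RNA the half-lives, leaving Smad7 aside, followed the order Id3, Id4, Smad1, Smad6, Bmpr1a and Smad5. With a straight line on the log2 scale, or with the start fixed at 1, Id3 was still the shortest and Bmpr1a and Smad5 the longest in total RNA, while the order within the rest changed. Smad6 had 52.0 ± 12.3, 38.8 ± 5.1, 40.3 ± 8.6 and 63.7 ± 2.5 min in total RNA, nucleus, cytosol and membrane, and Bmpr1a had 89.9 ± 10.9, 93.9 ± 32.3, 109.3 ± 15.9 and 115.3 ± 4.9 min. With the start fixed at 1, cytosolic Smad6, whose 30 min values were above 1, was at 92.7 min and Bmpr1a in membrane RNA at 174.1 min. Id4, Smad6 and Smad1 did not differ beyond their SDs in total RNA, and neither did Smad5 and Bmpr1a. The gap between these groups, which were formed from the same values, ran from 52.0 to 89.9 min in total RNA and exceeded the SDs on both sides. In nuclear RNA the groups overlapped. There Smad1 was at 66.9 ± 17.5 min with a replicate series of up to 86.6 min. The lowest nuclear series of Bmpr1a was at 64.8 min.

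The sequences of the 3′ untranslated regions (3′UTRs) were read for motifs known from mRNA decay, after the half-lives had been seen. ATTTA is the core of AU-rich elements, which recruit decay factors such as the ZFP36 proteins, and TGTANATA is the site bound by Pumilio proteins. Both were counted on the mRNA strand of 1 annotated transcript per gene (GENCODE, GRCm38). Which isoform the cells used is not known from these values. ATTTA occurs in 69.17% of the 3′UTRs of 9472 genes fitted in total RNA, and TGTANATA in 25.6%. Id3 and Smad1, 2 of the quickly lost members, hold 0 ATTTA in 536 and 1254 bases. Smad6, whose slope in total RNA was -1.14 ± 0.09 per hour with unlisted libraries left out and so lay between those of Id3 and Smad1, holds 2 in 448. Smad5 and Bmpr1a, with the longest half-lives, hold 6 in 4899 and 8 in 3810 bases. Id4 holds 9 in 3093 bases and Smad7 4 in 1570. Across all genes the median slope was -0.18 per hour with no ATTTA and -0.29 with at least 6, but the median 3′UTR also lengthened from 392 to 3280 bases between these classes.

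Id4 held the most Pumilio-type motifs of the members, with 4 copies of TGTANATA, a number reached by 0.992% of the 9472 genes. This share is not corrected for length: the 3′UTR of Id4 has 3093 bases, against a median of 1091 for these genes. Smad1, Bmpr1a and Smad7 hold 1 each, and Id3, Smad5 and Smad6 hold 0. The 4 windows of Id4 and the 1 of Smad1 are shown because they carry this difference between quickly lost members. The stretch of Smad5, a member lost slowly relative to the rest of the set, that holds 2 ATTTA within 11 bases is shown next to them. The 1 TGTANATA window of Bmpr1a, the other such member, is not shown. Capitals mark the motif. The windows of Id4 lie at chr13:48263386-48263415, chr13:48263503-48263532, chr13:48263594-48263623 and chr13:48264705-48264734 on the plus strand, that of Smad1 at chr8:79339051-79339080 on the minus strand, and that of Smad5 at chr13:56738012-56738041 on the plus strand.
Id4, 453 bases after the stop codon: taccagagcacTGTAGATAtgttgttttac
Id4, 570 bases after the stop codon: atttcatacccTGTATATAtagagatgttc
Id4, 661 bases after the stop codon: taaatatttttTGTAAATAttatgtgtctg
Id4, 1772 bases after the stop codon: attgggtgcttTGTAAATAgtgaactgtgt
Smad1: tttgctaaataTGTATATAcagaatatttg
Smad5: gacgtcatacATTTAcATTTAatataggta
A match is a description of the sequence, and binding to these windows was not measured. An effect of these motifs on decay was not tested.

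The pattern of Smad7 over the 16 groups of fraction and time was most like those of Zfp36l2, an AU-rich element binding decay factor, Lats1, a kinase of the Hippo pathway, and Ticam1, an adaptor of Toll-like receptor signalling. Their root mean square differences from Smad7 were 0.475, 0.481 and 0.522 on the log2 scale over the 16 group means, against a median of 1.66 for the 10693 other genes listed in all 48 libraries. In total RNA Zfp36l2 went from 0.560 at 30 min to 0.152 at 120 min and 0.314 at 240 min (means of 3). Lats1 and Ticam1 rose less after 120 min. Lats1 went from 0.493 to 0.143 and 0.170 at the same times, and Ticam1 from 0.635 to 0.116 and 0.176. Nearest to Bmpr1a were Selenoi, Tnfrsf21 and Rxylt1 at 0.138, 0.140 and 0.147, against a median of 0.933. For both queries the genes were picked as the nearest, so a distance below the median was fixed in advance. The nearest genes of Smad7 lay further from it than those of Bmpr1a did from Bmpr1a.

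The shape of Smad7 was then sought in all genes, with no test since Smad7 itself set the rule. The values of 120 min had to lie below all of 30 min and below all of 240 min in each of the 4 kinds of library. This held for 13 of 10694 genes, and for 6 of them with a mean ratio at 120 min below 0.5 in all 4. Zfp36l2, Lats1 and Ticam1, the genes of nearest pattern, were not among the 13. In single fits it held for 567 genes in total RNA, 160 in nuclear RNA, 173 in cytosolic RNA and 265 in membrane RNA. Besides Smad7 the 6 with the deep fall were Socs3, Trib1, Dido1, Inafm1 and 9330102E08Rik. Socs3 and Trib1 encode an inhibitor of cytokine signalling and a pseudokinase that promotes protein degradation. A shared function of the 6 was not tested. In total RNA Socs3 had mean ratios of 0.297, 0.0225 and 0.135 at 30, 120 and 240 min, and Trib1 0.488, 0.0198 and 0.113. Dido1 had 0.870, 0.188 and 0.453, Inafm1 0.664, 0.331 and 0.894, and 9330102E08Rik 0.856, 0.387 and 0.736. Smad7 had 0.471, 0.103 and 0.239.

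Other genes of the BMP pathway were taken from a list of 46 ligands, receptors, SMADs, regulators, antagonists, targets and E proteins. In total RNA 21 could be fitted, of which 13 were called lower by slope, 0 higher and 8 neither, with a median slope of -0.27 against -0.22 for all genes. In nuclear RNA 18 of 24 were called lower, in cytosolic RNA 8 of 14, and in membrane RNA 18 of 23 with 1 higher. The median slopes of the list were -0.43, -0.32 and -0.33 there, against -0.30, -0.28 and -0.26 for all genes. Of all genes 56.9%, 61.9%, 67.1% and 62.2% were called lower in total, nuclear, cytosolic and membrane RNA.

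By role, the 4 fitted intracellular regulators were all called lower in total RNA, with a median slope of -0.64. They included Smurf2, a ubiquitin ligase that acts with SMAD7 (-0.62 ± 0.06 per hour, adjusted p = 1.1e-06, limma), and Ppm1a, a phosphatase of SMADs (-0.54 ± 0.05, adjusted p = 7.7e-07, limma). All 3 fitted receptors were called lower, among them Acvr2b (-0.41 ± 0.05) and Bmpr2 (-0.40 ± 0.05), which pair with type I receptors such as BMPR1A. Smad4, the common partner of SMAD1 and SMAD5, fell by 0.42 ± 0.06 per hour, between Smad5 and the median gene.

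Of the ligands, Gdf3 fell by 0.27 ± 0.05 per hour and Bmp7 was not called (-0.19 ± 0.10, adjusted p = 0.12, limma). The secreted or membrane-bound antagonists Fst and Crim1 fell by 0.75 ± 0.18 and 0.33 ± 0.06. Of the 5 fitted antagonists 3 were called lower, and their median slope of -0.14 was flatter than the -0.22 of all genes. Msx2, a homeobox target of BMP signalling, had the steepest slope of the genes named by rule, -1.14 ± 0.13 (adjusted p = 5.9e-06, limma), close to Id3 and Smad1. The intracellular regulator Tob1, not named by that rule, was steeper at -1.36 ± 0.18 (adjusted p = 3.2e-05, limma). The phosphatase gene Dusp9 was not called by slope (0.01 ± 0.04) but rose by 0.44 ± 0.09 from 120 to 240 min (adjusted p = 0.0030, limma). It was the 1 gene of the 21 fitted from the list called higher in that interval in total RNA, against 5.92% of all genes. The late step of Dusp9 was not called in nuclear, cytosolic or membrane RNA (adjusted p = 0.12, 0.088 and 0.14, limma). The E protein genes Tcf12 and Tcf4, whose products ID proteins bind, were not called by slope in total RNA (0.20 ± 0.17 and -0.19 ± 0.24 per hour). Tcf12 fell from 120 to 240 min in all 4 kinds of library, by 1.34 ± 0.29 in total RNA (adjusted p = 0.0047, limma), 1.62 ± 0.29 in nuclear RNA (adjusted p = 0.0018, limma), 1.45 ± 0.33 in cytosolic RNA (adjusted p = 0.0040, limma) and 1.35 ± 0.37 in membrane RNA (adjusted p = 0.015, limma). The slope of Tcf4 was called in nuclear RNA (-0.43 ± 0.11 per hour, adjusted p = 0.0041, limma).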

How the data were processed

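Reads had been aligned to mm10 with STAR 2.7.6 and counted with RSEM 1.3.3 by the authors, who scaled libraries on long-lived genes and divided every series by its start (submitters' processing notes and the study's methods). What was deposited is thus a ratio to 0 min, although the heading names a normalized read count. The replicates of a gene share 1 divisor: in total RNA the quotient of 2 replicates at 30 min took 1 same value in 1262 of 16587 genes, about as often as within a replicate. The last time is 240 min in the titles and 180 min in the protocol, and 240 min was used. The files state no depth, so no counting interval is given. The members and all gene lists were chosen with earlier results of these data known.

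Groups came from the sample titles. The log2 ratio, without a pseudocount, of genes listed in every library of a fit was modelled with limma 3.58.1 in R 4.3.3 (eBayes with trend, two-sided, Benjamini-Hochberg over all genes), as a slope on hours, as the 30 min level, as the step from 120 to 240 min, and as differences between fractions. Genes not listed in all 12 libraries of a fraction were fitted only with unlisted libraries left out. Half-lives came from least squares of an exponential with a fitted start in Python 3.11.15 with scipy 1.17.1. Named genes of the list are the 2 per role with the smallest adjusted p of the slope in total RNA, Dusp9 among them. Tob1 was named in addition, for its slope. Nearest patterns skip predicted genes, and the genes with the shape of Smad7 were named after their values were seen. Pairs with Id1 or Id2 were not computed. On simulated data with 200 changed genes of 12762, limma recovered 74.0% of slopes of 0.5 per hour with 6 false calls, and 41.0% of late steps of 1 with 4. Replicate numbers were not treated as pairs, since same-numbered libraries of different times did not deviate together (correlations -0.032 to 0.273 in total RNA, of which 4 of 18 exceeded 0.1).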

Additional observations from a re-analysis of the deposited data

How the results depend on the processing

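Slopes of Id3, Id4, Smad1, Smad5, Bmpr1a and Smad6, where fitted, kept direction and call under every alternative, as did the late rise of Smad7 in total and membrane RNA. A replicate block lost and added no member's call, and left the late rise of Smad7 in total RNA at 1.24 with an adjusted p of 0.00135 by limma. The values say nothing on abundance, and depth and the error at 0 min are unknown. The causes of the changes below were not tested.

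Leaving out 1 replicate gave 5 to 6 members lower by slope in each fraction, and 12 to 14, 17 to 18, 7 to 10 and 15 to 19 genes of the pathway list in total, nuclear, cytosolic and membrane RNA, with 0 to 1 higher in membrane RNA. Genes called lower numbered 6111 to 7038, 6532 to 8638, 7379 to 7688 and 6443 to 7369 in the same order, of 12392 to 13949 tested. Without the nuclear library of 30 min, replicate 1 alone, the list had 19 lower in nuclear RNA, beside 8716 of all 13484 genes. Lower at 30 min were 0 members in total, cytosolic and membrane RNA and 0 to 2 in nuclear RNA. Over all genes 0 to 37, 0 to 6 and 1 to 27 were lower in the first 3, and 1331 to 2779 in nuclear RNA. In the late step 1 to 4 members were lower in total RNA, 4 to 5 in nuclear, 4 to 6 in cytosolic and 4 to 5 in membrane RNA. Higher were 0 to 1 in nuclear RNA and 0 in cytosolic RNA. Genes lower in the late step numbered 1579 to 3949, 1518 to 4097, 4598 to 4618 and 2947 to 3788 in total, nuclear, cytosolic and membrane RNA. Genes higher numbered 61 to 257 in nuclear and 208 to 270 in cytosolic RNA.

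With libraries centred on the median gene, members lower at 30 min went from 3 to 0 in nuclear RNA and from 2 to 1 in both cytosolic and membrane RNA. Over all genes 2161 of 13343, 627 of 11979 and 560 of 12408 were then lower in nuclear, cytosolic and membrane RNA. The pathway list then had 8 genes lower in nuclear and 10 in membrane RNA, and 2, 4, 3 and 3 higher in total, nuclear, cytosolic and membrane RNA. Over all genes 3897 and 3837 were lower by slope in nuclear and membrane RNA. Higher were 3672, 3954, 3520 and 3513 genes in total, nuclear, cytosolic and membrane RNA. The slope of Smad7 reversed to 0.047 in total, 0.22 in nuclear and 0.17 in membrane RNA, and the 30 min level of Bmpr1a in membrane RNA to 0.10. The late fall of Bmpr1a was called larger in membrane than in cytosolic RNA, 1 member lower, beside 239 of 11086 genes.

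Mitochondrial scaling gave 0 members lower at 30 min in cytosolic RNA and 5 in membrane RNA, 0 lower in the late step of nuclear RNA and 0 higher in that of cytosolic RNA. Over all genes it called 62 of 11979 and 6372 of 12408 lower at 30 min in cytosolic and membrane RNA. In the late step it called 224 of 13343 lower in nuclear RNA and 155 of 11979 higher in cytosolic RNA. The pathway list had 8 genes lower in nuclear and 5 in cytosolic RNA, with 1 higher in nuclear and 0 in membrane RNA. Over all genes the same slope fits called 2926 of 13343 lower in nuclear and 3539 of 11979 in cytosolic RNA. They called 625 higher in nuclear RNA and 98 of 12408 in membrane RNA. Reversed were the slope of Smad7 in nuclear RNA (0.10), the 30 min level of Bmpr1a in cytosolic RNA (0.23), the late step of Smad5 in nuclear RNA (0.10) and the late step of Bmpr1a in nuclear minus cytosolic RNA (0.46). Bmpr1a was called steeper in membrane than in cytosolic RNA (1 member lower), as were 2269 of 11086 genes. In the late step of nuclear minus cytosolic RNA 3 members were called higher, as were 2505 of 11232 genes.

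Without the last time the pathway list had 20 genes lower in total RNA and 1, 2 and 2 higher in total, nuclear and cytosolic RNA. Its slope differences called 1 member in each test, Id3 for nuclear and Smad6 for membrane minus cytosolic RNA, and Bmpr1a reversed to 0.15 in the second. A last time of 180 min gave 1 member higher for nuclear minus cytosolic RNA, again Id3, beside 1248 of 11232 genes. With the harvest as a block Smad7 was called in both, and without the nuclear library of 30 min, replicate 1, Bmpr1a was called lower in nuclear RNA (1 member each). Pseudocounts of 0.01 and 0.1 turned the 30 min level of Bmpr1a in membrane RNA to 0.0038 and 0.13, and it was between -0.047 and 0.025 without 1 replicate. The pseudocount of 0.1 left 1 member lower at 30 min in cytosolic RNA, and 710 of 11979 genes. Without a trend 2 members were lower at 30 min in total RNA, and without the filter the pathway list had 16 genes lower in cytosolic RNA.

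Of 276 half-lives recomputed, 94 moved by more than 1 SD, 23 of them among the 25 with median centring, which took Smad5 in total RNA from 96.4 to 197.1 min. For Smad7 over all times 4 alternatives gave no finite half-life.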
